A study of Mus musculus with 6 samples.

Results

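Cytosolic RNA sensors were measured by RNA-Seq in bone marrow–derived macrophages (BMDM) that lacked the catalytic subunit of protein phosphatase 2A (PP2Ac) and in WT BMDM. The 7 genes examined were *Ddx58*, *Ifih1*, *Dhx58*, *Mavs*, *Eif2ak2*, *Zbp1* and *Adar*, which were taken by symbol from the 55453 genes of the deposited count table. All 7 were found, and all 7 were among the 13680 genes with enough counts to be tested. The PP2AcKO libraries (n = 3) came from *LysMcrePP2Acfl/fl* mice on *C57BL/6*, in which *cre* driven by the Lysozyme 2 promoter removes *Ppp2ca* exon 1 from myeloid cells. The PP2AcWT libraries (n = 3) came from WT *C57BL/6* mice obtained from a vendor, and the study does not describe these controls as carrying *cre*. Mice were 6 to 10 weeks old and of both sexes, and marrow was grown for 7 days with M-CSF or L929-conditioned medium. Cells of both genotypes had been treated with the STING agonist cGAMP at 10 μg/mL for 4 hours, a treatment described for the experiment but absent from the sample labels. Untreated libraries were not analysed here, so each value is a level in treated cells and not an induction.

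RIG-I (*Ddx58*) and MDA5 (*Ifih1*) are helicases that bind foreign or misplaced double-stranded RNA in the cytosol, and LGP2 (*Dhx58*) is a relative of them that lacks the signaling domains. RIG-I and MDA5 pass the signal to MAVS, an adaptor on the mitochondrial outer membrane that recruits the kinases of type I IFN induction. PKR (*Eif2ak2*) is a kinase that halts translation on binding double-stranded RNA, ZBP1 binds Z-form nucleic acid and can trigger necroptosis, and ADAR edits adenosine to inosine in double-stranded RNA, which keeps the cell's own RNA from being sensed. Most of these sensors are themselves IFN-stimulated genes (ISGs), so that IFN raises the sensitivity of a cell to RNA. cGAMP is the ligand of STING, which belongs to the DNA-sensing branch and reaches type I IFN without MAVS.

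Library totals ran from 35257156 to 47390899 counts. *Ppp2ca*, the targeted gene, had 33 to 47 counts in the PP2AcKO libraries and 8279 to 10654 in the PP2AcWT libraries, so every label held. Of 8 macrophage markers, 2 were higher in PP2AcKO and 0 lower in the edgeR fit for genotype alone, beside 18.1% and 19.0% of all genes tested. A fit with the replicate number as a blocking term also called *Csf1r*, *Cd14* and *Lyz2* higher. The summed levels of the 8 markers did not overlap, at 8620 to 8730 CPM in PP2AcKO and 7275 to 7836 CPM in PP2AcWT. *Csf1r* had the highest mean, 3404 CPM in PP2AcKO and 3009 CPM in PP2AcWT. *Lyz2*, the gene whose promoter drives *cre*, was listed at 8.85 ± 1.13 CPM in PP2AcKO and 7.30 ± 0.911 CPM in PP2AcWT (SD, n = 3). It can share reads with its close paralog *Lyz1*, listed at 46.3 ± 4.34 CPM and 95.4 ± 12.6 CPM, so these counts may understate it and the level of either gene is uncertain. Whether reads were lost in this way was not tested. The summed levels of neutrophil, dendritic cell, T and NK cell, B cell and mast cell markers stayed under 2 CPM in every library, and *Ly6g* and *Cd8a* had 0 counts in all 6. The 4 fibroblast markers *Col1a1*, *Col1a2*, *Col3a1* and *Dcn* summed to 22.7 to 33.4 CPM in PP2AcKO and 74.8 to 117.6 CPM in PP2AcWT, and all 4 were lower in PP2AcKO. Their part in the results was not tested. In such bulk libraries, fewer cells of a type and less RNA per cell cannot be told apart.

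Of the 7 genes, 6 were higher in PP2AcKO BMDM and *Mavs* was lower (FDR under 0.05, where FDR is the p-value of the edgeR quasi-likelihood test adjusted by Benjamini-Hochberg over every gene tested). Across all genes tested, 18.1% were called higher and 19.0% lower at this threshold. A fit with the replicate number as a blocking term (the block) called the same 6 members higher and *Mavs* lower, where it called 24.4% of genes higher and 26.4% lower. *Zbp1* differed most, by 3.07-fold, and the other 5 that rose did so by 1.69-fold to 2.02-fold. *Mavs* fell 1.36-fold. None of the 7 genes had overlapping values between the genotypes, where the groups of 3 libraries were separate with PP2AcKO above for 24.1% of genes tested and below for 26.8%. The 6 genes that rose stood between the top 1.08% and the top 6.76% of log2 fold changes, while 14.6% of genes had a log2 fold change under that of *Mavs*.

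**Figure D1:**
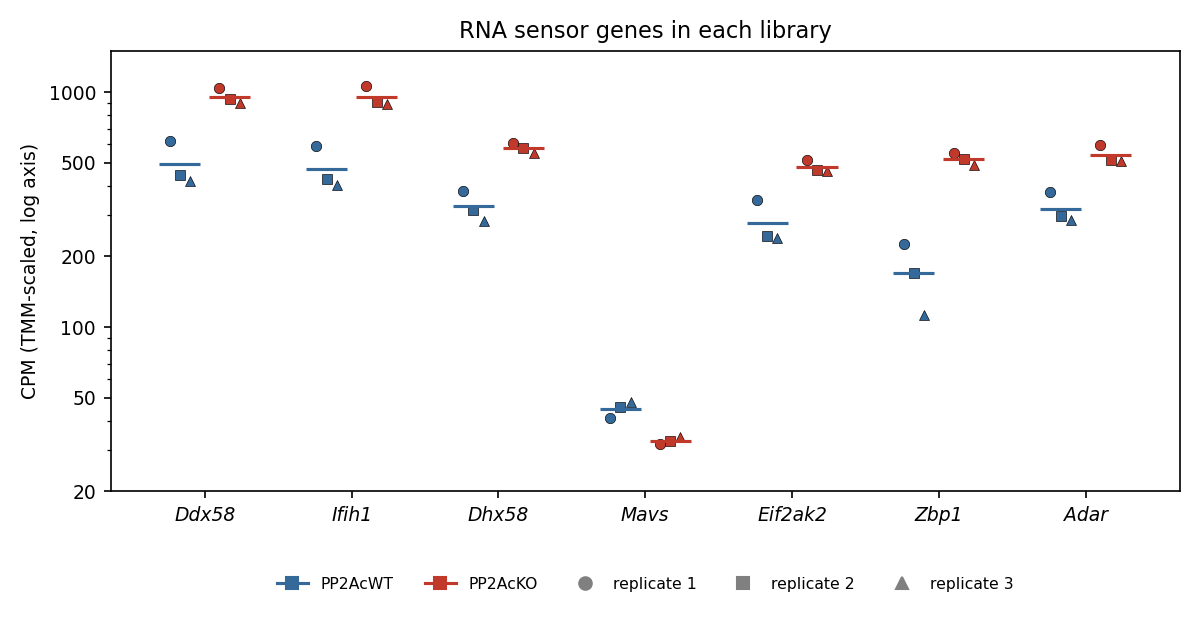
Level of the 7 sensor and adaptor genes in each library, in TMM-scaled CPM on a log axis, with blue symbols for PP2AcWT, red symbols for PP2AcKO, symbol shapes for the replicate numbers and bars for the means of 3 libraries. The PP2AcKO libraries lie above the PP2AcWT libraries for 6 genes and below them for *Mavs*.

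Among the RIG-I-like receptors, *Ddx58* occupies bases 40203773 to 40239828 of chromosome 4 (reverse strand, build GRCm38). RIG-I recognizes short double-stranded RNA and RNA ends that carry a triphosphate. Its gene was counted at 1040 CPM, 934 CPM and 901 CPM in PP2AcKO libraries 1, 2 and 3, and at 617 CPM, 444 CPM and 418 CPM in PP2AcWT libraries 1, 2 and 3. The lowest PP2AcKO library was thus 1.46 times the highest PP2AcWT library. The log2 change was 0.96 (SE 0.14, edgeR FDR = 7.76e-04), which is just short of the study's threshold of 1 for upregulated genes.

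*Ifih1* occupies bases 62595798 to 62646255 of chromosome 2 (reverse strand). MDA5 forms filaments on long double-stranded RNA. The levels were 1065 CPM, 911 CPM and 892 CPM in PP2AcKO libraries 1, 2 and 3, against 588 CPM, 429 CPM and 402 CPM in PP2AcWT. Its log2 change was 1.01 (SE 0.14, edgeR FDR = 6.23e-04), just past 1. *Ddx58* and *Ifih1* had nearly the same profile over the 6 libraries. With each gene's log2 CPM taken relative to its PP2AcWT mean, they differed by a root-mean-square of only 0.0433, and 11 of the genes tested came closer to *Ddx58* than *Ifih1* did. The log2 fold changes of 0.96 and 1.01 fall on opposite sides of the study's threshold, but their 95% intervals, 0.64 to 1.27 and 0.70 to 1.33, overlap almost entirely.

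*Dhx58* occupies bases 100694884 to 100704271 of chromosome 11 (reverse strand). LGP2 has no caspase recruitment domain and modulates the other receptors, aiding MDA5 in particular. PP2AcKO libraries 1, 2 and 3 had 607 CPM, 581 CPM and 553 CPM, and PP2AcWT libraries had 379 CPM, 316 CPM and 284 CPM. The groups were separated by 1.46-fold at their closest points, and the log2 change was 0.83 (SE 0.10, edgeR FDR = 3.94e-04).

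*Mavs*, the common adaptor of RIG-I and MDA5, occupies bases 131234063 to 131248025 of chromosome 2 (forward strand). It had 31.8 CPM, 32.9 CPM and 33.9 CPM in PP2AcKO libraries 1, 2 and 3, and 41.1 CPM, 45.8 CPM and 47.9 CPM in PP2AcWT. It was the only member of the 7 with lower values in PP2AcKO, and each value rested on 1087 to 2041 counts. The log2 change was -0.45 (SE 0.07, 95% interval -0.61 to -0.29, edgeR FDR = 0.00120). The receptors that signal through MAVS thus rose while the transcript of the adaptor itself fell.

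*Eif2ak2* occupies bases 78852564 to 78882573 of chromosome 17 (reverse strand). PKR phosphorylates the translation initiation factor eIF2α. The values were 513 CPM, 464 CPM and 464 CPM in PP2AcKO and 346 CPM, 245 CPM and 240 CPM in PP2AcWT. Its groups came closest among the genes that rose, with the lowest PP2AcKO library 1.34 times the highest PP2AcWT library. The log2 change was 0.79 (SE 0.13, edgeR FDR = 0.00166).

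*Zbp1* occupies bases 173206612 to 173218923 of chromosome 2 (reverse strand). ZBP1 carries Zα domains that bind Z-RNA and Z-DNA, and motifs through which it engages RIPK3. PP2AcKO libraries 1, 2 and 3 had 553 CPM, 522 CPM and 488 CPM, and PP2AcWT libraries had 226 CPM, 169.9 CPM and 113 CPM. The PP2AcWT libraries spread over 2.00-fold, more than for any other of the 7 genes, and the PP2AcKO libraries over 1.13-fold. Even so, the lowest PP2AcKO library was 2.16 times the highest PP2AcWT library. The log2 change was 1.62 (SE 0.20, edgeR FDR = 4.02e-04), and its 95% interval ran from 1.16 to 2.08. *Zbp1* and *Ifih1* were the 2 members past the study's thresholds for upregulated genes, a log2 value over 1 with an FDR under 0.01. Of all genes tested, 3.36% passed these thresholds and 2.99% passed their mirror image, which *Mavs* did not. *Ifih1* fell short of them without PP2AcKO library 1, PP2AcWT library 2 or PP2AcWT library 3, with log2 values of 0.91 or more, and *Ddx58* passed them without PP2AcKO library 3 or PP2AcWT library 1.

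*Adar* occupies bases 89715022 to 89753446 of chromosome 3 (forward strand). ADAR is the only other member with a Zα domain, which is found in its long isoform. PP2AcKO libraries 1, 2 and 3 had 593 CPM, 515 CPM and 509 CPM, and PP2AcWT libraries had 375 CPM, 296 CPM and 285 CPM. The groups were separated by 1.36-fold, and the log2 change was 0.76 (SE 0.11, edgeR FDR = 8.51e-04). Counts were made per gene, so that the long isoform and the shorter, constitutive isoform could not be told apart. *Adar* shares 1365 bp of exon with *Chrnb2* on the opposite strand, but *Chrnb2* had at most 159 counts in a library, against 11935 or more for *Adar*. Whether counting took account of strand is not given in the sources used here.

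**Figure D2:**
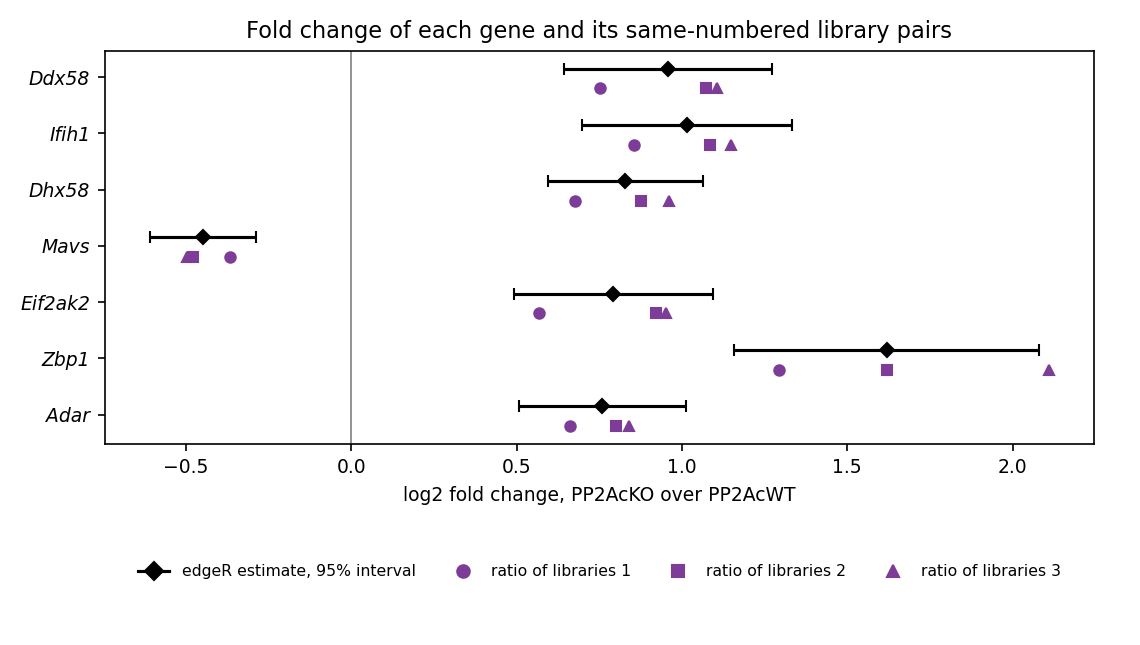
Log2 fold change of each gene, PP2AcKO over PP2AcWT, with edgeR estimates and their 95% intervals as black diamonds and bars, and the log2 ratio of each pair of same-numbered libraries as purple symbols. All pairs lie to the right of 0 for 6 genes and to the left for *Mavs*, and pair 1 lies nearest to 0 for each gene.

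Libraries with the same replicate number varied together in these genes. Library 1 was the highest of its genotype in both PP2AcKO and PP2AcWT for all 6 genes that rose, and the lowest in both for *Mavs*. Of all genes tested, 22.8% were highest in library 1 of both genotypes and 22.1% lowest. Library 1 was also the highest in both genotypes for 15 of 16 classical ISGs listed for comparison. Within pair 1 the log2 ratios of PP2AcKO to PP2AcWT ran from 0.57 (*Eif2ak2*) to 1.29 (*Zbp1*), and within pair 3 from 0.84 (*Adar*) to 2.11 (*Zbp1*). The pairs therefore differed in size but not in direction. For *Mavs* the 3 paired values were -0.37, -0.48 and -0.50.

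Levels of different genes were compared per kilobase of exon, with the exons of all annotated transcripts of a gene merged. In PP2AcWT BMDM, *Dhx58* had the highest level, at 99.8 ± 14.8 CPM per kb (SD, n = 3). It was followed by *Ddx58* at 69.9 ± 15.3, *Ifih1* at 57.9 ± 12.3, *Eif2ak2* at 54.2 ± 11.7, *Zbp1* at 48.0 ± 15.9 and *Adar* at 39.2 ± 6.04 CPM per kb. *Mavs* was the lowest, at 13.4 ± 1.04 CPM per kb. The ranges of neighbors in this order overlapped for every pair except *Adar* and *Mavs*. Even so, *Dhx58* exceeded *Ddx58*, *Ddx58* exceeded *Ifih1* and *Ifih1* exceeded *Eif2ak2* within each of the 3 libraries. *Eif2ak2* exceeded *Zbp1* in 2 of 3 libraries, and *Zbp1* exceeded *Adar* in 2 of 3.

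In PP2AcKO BMDM the levels were 177.2 ± 8.21 CPM per kb for *Dhx58*, 147.6 ± 9.26 for *Zbp1*, 135.9 ± 10.3 for *Ddx58* and 117.1 ± 11.6 for *Ifih1*. *Eif2ak2* stood at 93.99 ± 5.55, *Adar* at 66.4 ± 5.75 and *Mavs* at 9.83 ± 0.316 CPM per kb. By group means, *Zbp1* moved from the fifth place in PP2AcWT to the second in PP2AcKO, and its place differed between the PP2AcWT libraries. The PP2AcKO range of *Zbp1* still overlapped that of *Ddx58*, as did the ranges of *Ddx58* and *Ifih1*. The other neighbors in the PP2AcKO order were separate. Within each of the 3 PP2AcKO libraries, *Zbp1* exceeded *Ddx58* and *Ddx58* exceeded *Ifih1*.

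**Figure D3:**
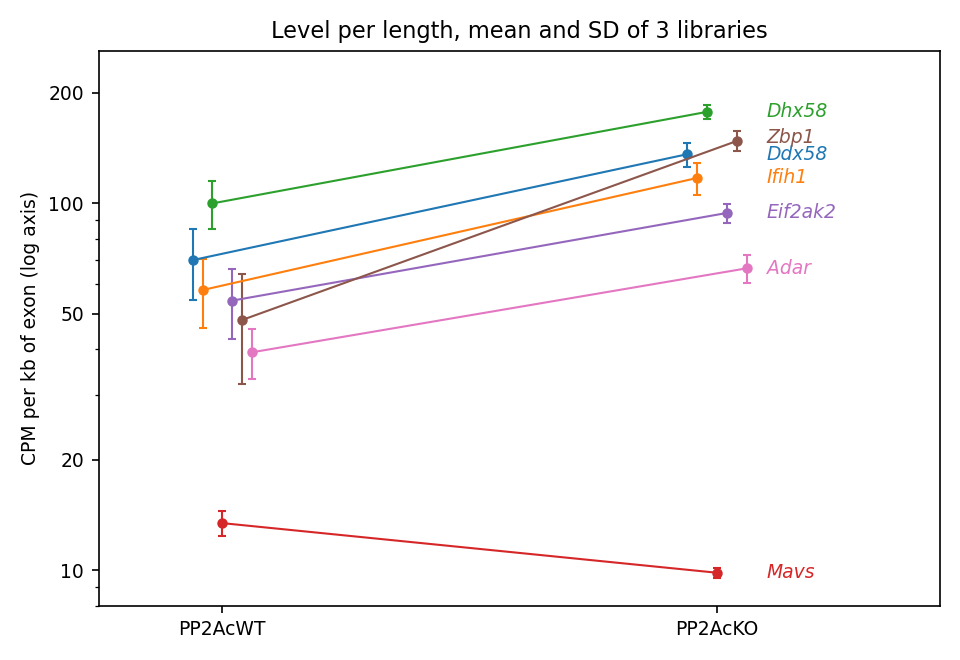
Level of each gene in CPM per kb of exon on a log axis, as the mean of 3 libraries with SD bars, in PP2AcWT and PP2AcKO. By these means, *Zbp1* crosses from the fifth to the second place, and the other 5 genes that rose keep their order among themselves. *Mavs* stays lowest, at 13.4 CPM per kb in PP2AcWT and 9.83 CPM per kb in PP2AcKO.

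Ratios between members were taken within each library, where they do not depend on library scaling. *Zbp1* stood at 2.15, 2.33 and 2.20 times *Adar* per kb in PP2AcKO libraries 1, 2 and 3, and at 1.39, 1.32 and 0.913 times *Adar* in PP2AcWT. Every PP2AcKO library thus had more *Zbp1* relative to the other Zα gene than any PP2AcWT library. *Ifih1* stood at 1.79, 1.76 and 1.74 times *Adar* in PP2AcKO and at 1.56, 1.44 and 1.40 times in PP2AcWT, a smaller shift in the same direction. By contrast, *Dhx58* was 1.85, 1.95 and 1.86 times *Eif2ak2* in PP2AcKO and 1.71, 2.02 and 1.85 times in PP2AcWT, with overlapping values. Separate groups were common, as 17 of the 21 ratios between members did not overlap, among them 6 with *Zbp1* and 6 with *Mavs*. Even *Ddx58* to *Ifih1* was separate, at 1.13 to 1.19 in PP2AcKO and 1.20 to 1.21 in PP2AcWT. The *Zbp1* to *Adar* and *Ifih1* to *Adar* ratios each had p = 0.1 in a 2-sided exact permutation test, the smallest that 3 libraries against 3 allow (0.124 adjusted over the 21 ratios computed between members), so no ratio could pass a threshold of 0.05.

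Annotated starts were searched for letters that resemble the IFN-stimulated response element (ISRE), a short promoter sequence through which type I IFN raises transcription. RefSeq windows of 300 bases (250 before and 50 after the start, GRCm38.p6) were at hand for 5 of the 7 genes, all but *Dhx58* and *Zbp1*. The letters GAAANNGAA, searched on both strands, were found in the windows of *Ddx58*, *Ifih1* and *Eif2ak2* and at the third of the 3 *Adar* starts. Of all 32851 windows, 8.56% hold them, which is a share per window, and *Adar* had 3 windows. These letters were chosen with the values and sequences of the genes known. The matches just after the starts are given within 30 bases of the gene's own strand, with the matching letters in capitals, because 4 genes that rose shared them. In *Ddx58* the letters stand on the opposite strand and read as their reverse complement.
*Ddx58*, chr4:40239803-40239832, reverse strand: ctgaggcagtTTCGATTTCctatggccagc
*Ifih1*, chr2:62646206-62646235, reverse strand: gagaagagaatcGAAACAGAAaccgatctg
*Eif2ak2*, chr17:78882532-78882561, reverse strand: ccgccggGAAAACGAAACAGAAgagaaccg
*Adar*, chr3:89730738-89730767, forward strand: ttttcaaggaaacGAAAGTGAActctgggg

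These 4 matches begin at position 4 in *Ddx58*, 33 in *Ifih1*, 19 in *Eif2ak2* and 34 in *Adar*, counted from 1 at the annotated start. The capitals of *Eif2ak2* join a pair of overlapping matches. Further matches begin at position -112 in *Ifih1* and at position -249 at the third *Adar* start. In GENCODE M21, 4 coding transcripts of *Adar* begin at 89730748, inside the window shown, and the longest of them, Adar-203, has 1178 codons. Adar-202, which begins at 89715022, has 930 codons, and the windows at the other two *Adar* starts held no match. The window of *Mavs* also held no match, where only 8.56% of all windows hold one. TTCNNNGAA, letters of the IFN-γ-activated site (GAS), occurred in the windows of *Eif2ak2* and of the third *Adar* start, and in 8.30% of all windows. A match of letters is not evidence of binding, and an absent match says only that these letters are not in these bases.

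**Figure D4:**
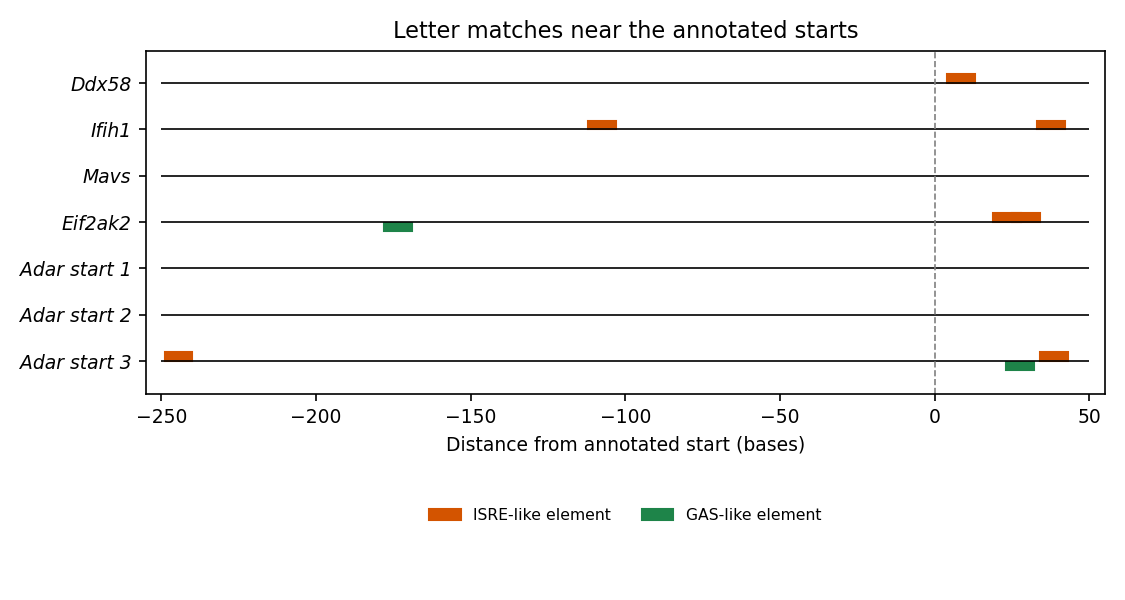
Positions of the letter matches around each annotated start, in bases from 250 before to 50 after it, for 5 genes with RefSeq windows (3 starts for *Adar*). Orange bars mark GAAANNGAA (ISRE-like element) and green bars TTCNNNGAA (GAS-like element), and the lines of *Mavs* and of the first and second *Adar* starts are empty.

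Genes that act with the sensors were described by lists. The counts of calls are to be read beside the shares over all genes tested, 18.1% higher and 19.0% lower. With the block these shares were 24.4% and 26.4%. No list was tested against them. Of 12 genes whose products activate RIG-I or MDA5, 4 were higher in PP2AcKO and 2 lower, and the median log2 change was 0.14, beside -0.02 over all genes tested. *Rnf135*, which encodes the ubiquitin ligase Riplet that activates RIG-I, went from 26.6 ± 2.82 to 56.8 ± 1.35 CPM (SD, n = 3), up by 1.09 on the log2 scale (SE 0.08, edgeR FDR = 5.51e-05). *Usp15*, *Mex3c* and *Zc3hav1*, the gene of the antiviral zinc-finger protein ZAP, rose with log2 fold changes of 0.76, 0.51 and 0.47. *Trim65*, whose product ubiquitinates MDA5, and *Ppp1cc*, a phosphatase gene whose product removes inhibitory phosphates from RIG-I and MDA5, fell with log2 fold changes of -0.61 and -0.27. The block gave 7 higher and 3 lower on this list.

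Of 17 genes whose products restrain RIG-I, MDA5 or MAVS, 4 were higher and 1 lower, beside 18.1% and 19.0% of all genes tested. The median log2 change was 0.11. *Nlrc5*, which is also the transactivator of MHC class I genes, rose from 139 ± 34.1 to 359.8 ± 53.5 CPM (log2 fold change 1.37, edgeR FDR = 3.30e-04). *March5*, the gene of a mitochondrial ubiquitin ligase that removes MAVS aggregates, rose from 165.7 ± 29.2 to 351.8 ± 21.6 CPM (log2 fold change 1.09, edgeR FDR = 1.96e-04). *Cyld* and *Tax1bp1* rose with log2 fold changes of 0.30 and 0.26, and *Atg5* fell with -0.21. The block gave 8 higher and 3 lower, and upper-quartile scaling 2 higher and 3 lower. Leaving out PP2AcKO library 1, PP2AcKO library 2, PP2AcWT library 2 or PP2AcWT library 3 left 2 higher, and the call for *Atg5* was lost in the first 3 of these fits.

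Downstream of MAVS, 7 of 16 genes of the signaling complex were higher and 0 were lower in the edgeR fit for genotype alone. The median log2 change was 0.15. Of those not called higher, 1 had a negative log2 fold change with an unadjusted p under 0.05, and the block called 2 lower. *Irf7*, the IFN-inducible transcription factor of type I IFN genes, rose by 1.53 on the log2 scale (SE 0.13, edgeR FDR = 9.07e-05). The adaptor genes *Tank* and *Azi2* rose with 1.10 and 0.75, and *Ikbke*, which encodes the kinase IKKε, with 0.91. *Irf3*, the constitutive factor of this step, named after its values were seen, had 34.4 ± 1.56 CPM in PP2AcKO and 35.6 ± 2.93 CPM in PP2AcWT.

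The PKR list had 4 genes higher and 3 lower of 13, and the median log2 change was -0.04. *Eif2s1*, which encodes eIF2α, the substrate of PKR, rose with a log2 fold change of 0.42. *Ppp1r15a* and *Ppp1r15b*, the genes of the subunits that direct protein phosphatase 1 to remove phosphate from eIF2α, rose with 0.38 and 0.54, and the stress factor gene *Ddit3* rose with 0.71. Of the other eIF2α kinase genes, *Eif2ak3* (PERK) fell from 29.1 ± 0.528 to 16.97 ± 1.54 CPM (log2 fold change -0.78, edgeR FDR = 1.35e-04), and *Eif2ak4* (GCN2) fell with -0.36. *Eif2b1* fell with -0.35. PKR was the member of this kinase family whose gene rose, while *Eif2ak1* (HRI), named after its values were seen, had a log2 fold change of 0.05 (95% interval -0.08 to 0.18).

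On the list of cell death genes that act with ZBP1, 4 of 8 were higher and 1 lower, and the median log2 change was 0.59. *Mlkl*, which encodes the executioner of necroptosis, rose from 54.3 ± 12.9 to 127.5 ± 8.30 CPM (log2 fold change 1.23, edgeR FDR = 2.80e-04). Genes whose products restrain necroptosis rose as well, namely *Tnfaip3* (log2 change 1.31) and *Casp8* (0.79), and *Cflar* went from 231 ± 38.1 to 462 ± 72.5 CPM. *Casp6* fell with a log2 fold change of -0.21. *Ripk3* and *Ripk1*, which encode the kinases that ZBP1 engages and were named after their values were seen, did not pass the test. *Ripk3* had 30.4 ± 6.78 CPM in PP2AcKO and 22.98 ± 6.82 CPM in PP2AcWT, and with the block it was called higher (edgeR FDR = 1.42e-04). *Ripk1* had a log2 fold change of -0.04 (95% interval -0.18 to 0.09). The 1 lower call, *Casp6*, was lost when PP2AcKO library 1, 2 or 3 or PP2AcWT library 2 or 3 was left out, in DESeq2 and with no filter on low counts.

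*Adarb1*, which encodes the other catalytically active ADAR enzyme, had 1.52 ± 0.379 CPM in PP2AcKO and 2.36 ± 0.270 CPM in PP2AcWT, a log2 fold change of -0.63 (edgeR FDR = 0.0341). The call was lost when PP2AcKO library 1 or 2 or PP2AcWT library 1 or 2 was left out. *Adarb2*, *Adad1* and *Adad2* had 0 counts in every library. Of 5 genes on this list, 2 were tested, and 1 was lower.

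Among 8 other cytosolic proteins with reported RNA-sensing roles, 2 genes were higher and 0 were lower in the edgeR fit for genotype alone. Of all genes tested, 18.1% were higher and 19.0% lower. The block called 2 of the 8 lower, and 1 of the 8 had a negative log2 fold change with an unadjusted p under 0.05. *Ddx60*, itself an ISG, rose by 1.54 on the log2 scale (SE 0.21, edgeR FDR = 5.43e-04), and *Lrrfip1* with 0.37. Of the endosomal RNA sensors, all 4 genes were higher, and 3 were when PP2AcKO library 1, 2 or 3 or PP2AcWT library 2 or 3 was left out or scaling was by the upper quartile. *Tlr3*, the receptor for double-stranded RNA, rose from 92.2 ± 30.3 to 288.6 ± 31.1 CPM (log2 fold change 1.65, edgeR FDR = 3.15e-04), close to the value of 1.62 for *Zbp1*. *Tlr7*, *Unc93b1* and *Tlr8* rose with 0.68, 0.40 and 0.32.

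All 16 classical ISGs listed for comparison were higher, with log2 fold changes from 0.28 (*Irf9*) to 2.55 (*Ifi44*) and a median of 1.07. *Oasl1*, *Irf7* and *Usp18* followed *Ifi44*, with 1.63, 1.53 and 1.27. The 6 sensor genes that rose had log2 fold changes of 0.76 to 1.62, within the range of these ISGs.

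**Figure D5:**
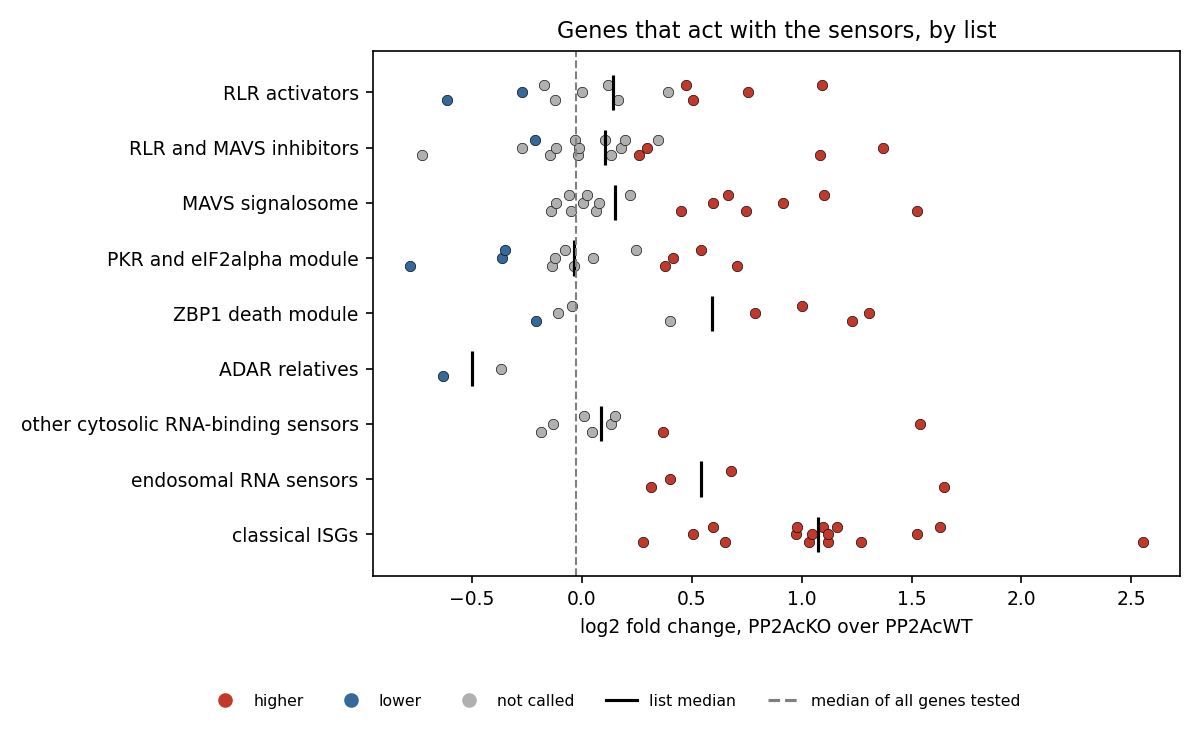
Log2 fold change, PP2AcKO over PP2AcWT, of each tested gene on 9 lists, with red points for genes called higher, blue points for genes called lower, grey points for genes not called, black bars for list medians and a dashed line for the median of all genes tested. The classical ISGs (median 1.07) and the endosomal sensors all lie to the right, while the PKR list has a median of -0.04 with calls on both sides.

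For each of the 7 genes, the 3 genes tested with the most similar values over the 6 libraries were identified by the root-mean-square difference of log2 CPM taken relative to the PP2AcWT mean. *Ikzf1*, *Usp25* and *Trim30a* were nearest to *Ddx58* (0.0186, 0.0285 and 0.0294). *Samhd1*, *Ikzf1* and *Parp12* were nearest to *Ifih1*. *Casp8*, *Tmem229b* and *Ehd4* were nearest to *Dhx58*, *Nampt*, *Acer3* and *Prkx* to *Eif2ak2*, and *N4bp1*, *Socs7* and *Crim1* to *Adar*. *Zbp1* had no neighbor as close, with *Gm5970*, *Isg20* and *Pou3f1* at 0.0730, 0.0898 and 0.0960. *Akap1*, *Ormdl3* and *Plpbp* were nearest to *Mavs* (0.0236, 0.0244 and 0.0265). No member was among the 3 nearest genes of another.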

How the data were processed

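RNA was measured in 6 libraries, 3 PP2AcKO and 3 PP2AcWT, grouped by the sample titles. Per the labels, poly(A) RNA went into directional libraries that were read for 150 bases at each end. The authors deposited whole-number counts of reads per gene on mm10 (GRCm38), without normalization. The submitters' processing notes name fastp 0.20.0, kallisto 0.46.1, STAR 2.7.1a, HTSeq 0.11.2, edgeR 3.34.0 and limma 3.48.3. Which of them made the table, the annotation release and the strand setting are not given in the sources used here.

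Counts were tested in R 4.3.3 with edgeR 4.0.16 (filterByExpr at 10 counts and 15 in total, TMM scaling, glmQLFit and glmQLFTest for genotype alone, Benjamini-Hochberg over 13680 genes). A gene was called at an adjusted p under 0.05. CPM use the TMM factors. Log2 CPM profiles use a prior count of 2. The study describes its cell experiments in general as biological triplicates. The labels do not say whether the 3 libraries per genotype came from separate animals or cultures. The p-values therefore weigh the genotype difference against the spread between these libraries, whatever its source, and need not extend to animals. Both genotypes carry replicate numbers 1 to 3 in the labels, and across genes the deviations of same-numbered libraries from their group means correlated at 0.289, 0.148 and 0.337. A further fit therefore had the replicate number as a block. Positions and exon lengths are from GENCODE M21, which holds 98.3% of the symbols, and promoter sequences from RefSeq (GRCm38.p6). Simulated counts for 13680 genes, of which 13520 passed the filter again, were used to test the fit for PP2AcKO against PP2AcWT. It found 97 of 100 genes changed by 2 on the log2 scale and 80 of 100 changed by 1, with 11 false calls. These were the only genes changed, and same-numbered simulated libraries shared no effect, unlike the data. The count of false calls therefore need not hold for the data.

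The members, lists and alternatives were chosen with earlier results of these data known. The genes named are the 7 members, up to 4 called genes of each list in each direction by size of change, and the 3 nearest genes of each member. *Irf3*, *Irf9*, *Eif2ak1*, *Ripk1*, *Ripk3*, *Adarb2*, *Adad1* and *Adad2*, and *Lyz1*, were named after their values were seen. Alternatives were DESeq2 1.42.0, limma-voom (limma 3.58.1), scaling by RLE or by the upper quartile, dropping the filter or asking for 10 counts per library throughout, the replicate block, and fits without single libraries. Leaving out both libraries of a replicate number was added after the data were seen.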

Additional observations from a re-analysis of the deposited data

How the results depend on the processing

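The 7 genes kept their direction and their side of the threshold in all 16 alternatives, 112 values in all, with 6 higher and 1 lower each time. The largest adjusted p came from leaving out replicate 2 of both genotypes, 0.0374 for *Mavs*. *Ifih1* stayed past the study's thresholds in 10 of 16 alternatives, *Zbp1* in 15, and *Ddx58* passed them in 3. Over the fits without single libraries or replicate numbers, the log2 fold change ran from 1.40 to 1.88 for *Zbp1*, from 0.91 to 1.20 for *Ifih1* and from -0.51 to -0.40 for *Mavs*. Genes called lower over all lists, 8 here, numbered 16 with upper-quartile scaling and 16 with the replicate block, and 1 to 8 over the fits with libraries left out (4 without PP2AcKO replicate 1 and 4 without replicate 3 of both genotypes). In the same fits, genes called at an adjusted p under 0.05 ran from 1295 to 2721 higher and from 1070 to 2720 lower. Genes past a log2 fold change of 1 with an adjusted p under 0.01 ran from 117 to 592 higher and from 112 to 415 lower. The lowest of these values came without replicate 2 of both genotypes, and the cause was not tested. The block changed no call among the 7 genes. Upper-quartile scaling moved the median over all genes by -0.06 (log2) and RLE by 0.02. Depth did not limit the 7 genes, whose lowest count was 1087.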
